A study of Rattus norvegicus with 6 samples.

Results

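The endothelial selectins and leukocyte adhesion molecules were taken as 5 genes, Sele (E-selectin), Selp (P-selectin), Vcam1, Icam1 and Icam2, of the 15037 genes that the array annotation names. They were chosen by name, with earlier results of these data known. Each was measured by 1 probeset, and all 5 were among the 11515 genes that passed the filter on dim genes. Expression was measured with Affymetrix arrays in endothelial cells of dermal blood vessels from rat abdominal skin. The groups were 3 IL-33 knock-out rats (animals 28, 27 and 52) and 3 wildtype rats (animals 34, 45 and 37), all Sprague-Dawley, with 2 females and 1 male (52 and 37) in each. The skin of both groups was digested for 2 hours with Collagenase I and DNAseI, depleted of CD45+ and Lyve-1+ cells, and the CD31+ cells were kept. The knockout allele and the age of the animals are not stated by the labels. The labels name no cell type to which the knockout is limited.

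These molecules bring leukocytes out of the blood. Selectins on the vessel wall bind sugar-bearing ligands on leukocytes and let them roll, and the immunoglobulin-type molecules Vcam1, Icam1 and Icam2 then bind leukocyte integrins and hold them. Sele, Vcam1 and Icam1 are induced by tumour necrosis factor and interleukin-1 through NF-kB, Selp is also stored ready-made in the Weibel-Palade bodies of endothelium and in platelets, and Icam2 is a constitutive endothelial molecule. Sele and Selp lie near each other in the rat genome, and Icam1 lies next to Icam4 and Icam5 (RefSeq, GRCr8). Interleukin-33 is a nuclear cytokine of barrier cells that signals through Il1rl1 and Myd88 to NF-kB.

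The upstream sequences of Vcam1 and Icam1 are shown because NF-kB motifs are well known control elements of this family and both windows held a match. The Sele window, which held none, is not printed. RefSeq (GRCr8) promoter sequences were available here for 3 of the 5 genes, Sele, Vcam1 and Icam1. The 250 bases before the annotated start of Vcam1 (minus strand, chr2:206742784-206743033) and of Icam1 (plus strand, chr8:27829595-27829844) follow, 5′ to 3′, with the matches described in the next paragraph in capitals.
Vcam1: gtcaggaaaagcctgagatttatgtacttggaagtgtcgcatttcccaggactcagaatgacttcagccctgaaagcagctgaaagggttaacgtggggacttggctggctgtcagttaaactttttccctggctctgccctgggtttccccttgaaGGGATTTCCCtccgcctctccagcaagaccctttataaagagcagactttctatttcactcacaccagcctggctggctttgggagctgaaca
Icam1: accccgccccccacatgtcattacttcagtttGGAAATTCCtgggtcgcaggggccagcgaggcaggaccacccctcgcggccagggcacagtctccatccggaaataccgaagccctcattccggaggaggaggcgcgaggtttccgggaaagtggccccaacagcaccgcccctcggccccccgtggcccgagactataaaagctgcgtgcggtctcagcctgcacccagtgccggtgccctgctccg

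The NF-kB consensus was found once in the Vcam1 window, as GGGATTTCCC from 93 to 84 bases before the start, and this run reads as a match on both strands. Of 33469 windows of 250 bases, 3.54% held that consensus on either strand. The Icam1 window held no match to the consensus, but held GGAAATTCC, a match to GGAANTTCC, from 218 to 210 bases before the start. That motif was in 0.669% of the windows, and it was added after the sequence was read because a site of this form is known from the human gene. The Sele window held neither motif. The AP-1 motif TGANTCA, searched on both strands and in 6.34% of the windows, was in none of the 3. A match describes letters in these windows and says nothing of binding in these cells.

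The comparison of genotypes asks whether endothelium of IL-33 knock-out rats carries other transcript levels of these molecules. The targeted gene Il33 had log2 expression of 8.07, 8.37 and 9.82 in knockout 28, 27 and 52, against 13.86, 16.32 and 16.60 in wildtype 34, 45 and 37. It was the single gene called between genotypes, 0.00868% of the genes tested (limma adjusted p = 0.0439). The Il33 signal left in the knockout lay above the highest background probesets (5.36 to 5.87), and its source was not tested. None of the 5 adhesion molecules was called, and each had a limma adjusted p of 0.999. No member had an unadjusted p under 0.05, which 1.97% of the genes tested had, and the genotypes overlapped in every member. All knockout arrays lay above all wildtype arrays in 3.36% of the genes tested, and below them in 2.89%. Of the 5 members 4 averaged higher in the knockout, where 54.1% of all genes tested did. Their median difference was 0.30 on the log2 scale, beside 0.037 over all genes tested. In such bulk samples, fewer cells of a type and less RNA per cell cannot be told apart.

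Wildtype 34 stood apart from the other arrays, with the highest keratinocyte markers, so its part in each value is given below. The median of 6 keratinocyte markers was 11.61, 8.80 and 8.72 in knockout 28, 27 and 52, against 15.2, 11.83 and 8.4 in wildtype 34, 45 and 37. Spike-in controls, which are bacterial and phage transcripts added during preparation, averaged 10.26, 9.33 and 8.82 in the knockout arrays, against 10.42, 10.12 and 8.91 in the wildtype arrays in the same order. All markers of blood endothelium tested gave signal above the background probesets (median 4.55 to 4.73), and the mean of those off the array ceiling was 14.04 to 14.30 in the knockout and 13.61 to 14.03 in the wildtype.

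**Figure D1:**
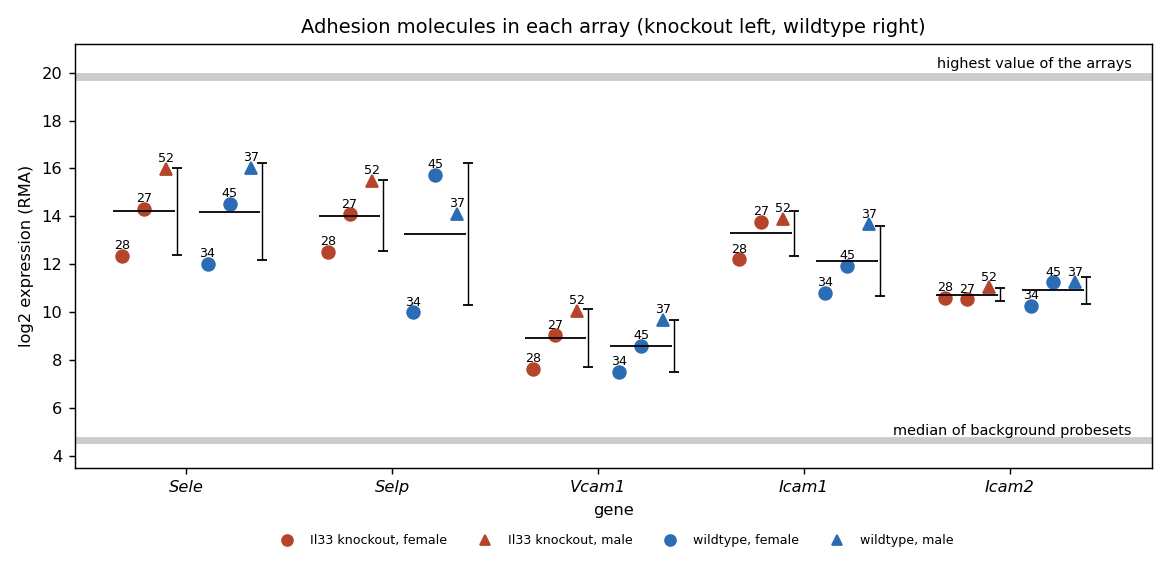
Log2 expression (vertical axis) of the 5 adhesion molecules in each array, knockout animals at the left and wildtype animals at the right of each gene, circles for females and triangles for males, numbers for animals. Horizontal lines are group means and bars 1 SD (n = 3 each); grey bands are the highest values of the arrays (19.70 to 19.93) and the medians of the background probesets. The genotypes overlap in every gene, wildtype 34 is the lowest array in all 5, and no point reaches the upper band.

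Sele encodes the selectin that endothelium makes when it is activated, and that skin vessels are known to carry. Its log2 expression was 12.35, 14.31 and 15.99 in knockout 28, 27 and 52, against 12.03, 14.52 and 16.04 in wildtype 34, 45 and 37. The 2 genotypes spanned nearly the same range, and each held a low, a middle and a high array. The means were 14.22 ± 1.82 in the knockout, against 14.20 ± 2.02 in the wildtype (SD, n = 3 each), with a difference of 0.02 (SE 1.06, 95% interval -2.36 to 2.40). The interval runs from 0.195-fold to 5.26-fold, so even a change of several fold was not detectable with these arrays. The difference was 0.055 in the females and -0.05 between the males. It was -1.06 without wildtype 34 and -0.87 without knockout 52. The sign of so small a difference also turned under several covariates, which are given in the closing section.

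Selp encodes the selectin that is released to the surface within minutes of activation. Its log2 expression was 12.52, 14.08 and 15.47 in knockout 28, 27 and 52, against 9.99, 15.73 and 14.11 in wildtype 34, 45 and 37. Both the lowest and the highest array were wildtype females, 34 and 45. Its range over the 6 arrays, 5.74, was larger than that of 99.8% of the genes tested. The means were 14.02 ± 1.48 in the knockout, against 13.28 ± 2.96 in the wildtype (SD, n = 3 each), a difference of 0.75 (SE 1.27, 95% interval -2.10 to 3.59). Without wildtype 34 the difference was -0.90, and without wildtype 45 it was 1.97. The 2 values bracket zero, so a direction for Selp rested on which wildtype female was kept.

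Platelets also hold Selp, and their markers were at background. Pf4, Ppbp, Gp9 and Treml1, the 4 of 8 platelet markers that the annotation names, lay under the median of the background probesets in all 6 arrays. Their median was 3.60 to 3.94 in the knockout and 3.29 to 3.95 in the wildtype. Erythroid genes, a sign of blood left in the preparation, had medians of 8.17 to 13.04 in the knockout and of 6.73 to 9.18 in the wildtype. The part of blood cells in the Selp values was not tested.

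Vcam1 binds the integrin made of Itga4 and Itgb1 on lymphocytes, monocytes and eosinophils. It had log2 expression of 7.63, 9.03 and 10.04 in knockout 28, 27 and 52, against 7.52, 8.58 and 9.69 in wildtype 34, 45 and 37. The order within each genotype was that of Sele, with the males highest. The means were 8.90 ± 1.21 in the knockout, against 8.60 ± 1.09 in the wildtype (SD, n = 3 each), and the difference was 0.30 (SE 0.68, 95% interval -1.21 to 1.82). It was -0.24 without wildtype 34 and -0.27 without knockout 52. Of the 5 probesets that of Vcam1 lay closest to background, yet in every array 75.3% or more of all genes had values no higher. Signals of different probesets do not rank transcripts by amount.

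Icam1 binds the integrins of Itgb2, paired with Itgal or Itgam, and showed the widest gap between genotypes among the 5 members. Its log2 expression was 12.20, 13.77 and 13.91 in knockout 28, 27 and 52, against 10.80, 11.93 and 13.67 in wildtype 34, 45 and 37. Both knockout females lay above both wildtype females, and the males lay close together, so that the groups overlapped through wildtype 37. The means were 13.29 ± 0.95 in the knockout, against 12.13 ± 1.45 in the wildtype (SD, n = 3 each). The difference of 1.16 (SE 0.71, 95% interval -0.43 to 2.75), or 2.23-fold, did not pass (limma unadjusted p = 0.135, adjusted p = 0.999). It was 1.62 in the females and 0.24 between the males, and the test of that unevenness, the interaction of genotype and sex, was not called either (-1.38, SE 1.07, limma adjusted p = 0.999).

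The size of the Icam1 difference depended on single animals, and its direction on a covariate. It was 0.49 without wildtype 34, 1.71 without knockout 28 and 1.93 without wildtype 37. The last is the smallest unadjusted p that limma gave Icam1 in any setting (0.00773), and its adjusted p was 0.501. With sex as a covariate the estimate was 1.16 with an unadjusted limma p of 0.0477 and an adjusted p of 0.961. With the keratinocyte median as a covariate it was 0.21, and with the split by spike-in signal as a block 0.50. With the mean of the blood endothelial markers as a covariate it turned to -0.80. That mean was higher in every knockout array than in every wildtype array, but knockout 27 (14.042) and wildtype 37 (14.029) nearly met. The fit thus compares the genotypes at a level of the mean that they approach but do not share. Wildtype 34, with the lowest Icam1, had the highest keratinocyte and fibroblast medians (15.2 and 12.69). The part of those cells in the difference was not tested beyond these fits.

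Icam2 is carried by resting endothelium and binds the same leukocyte integrins. Its log2 expression was 10.61, 10.54 and 11.04 in knockout 28, 27 and 52, against 10.26, 11.24 and 11.25 in wildtype 34, 45 and 37. The 6 values lay within 0.99 of each other, a range smaller than that of most genes tested (30.7% had a smaller one), and the genotypes overlapped. The means were 10.73 ± 0.27 in the knockout, against 10.92 ± 0.57 in the wildtype (SD, n = 3 each), a difference of -0.19 (SE 0.38, 95% interval -1.03 to 0.66). The interval corresponds to 0.488-fold to 1.58-fold, the narrowest of the 5. The direction held in all 18 alternatives, with values of -0.86 to -0.02.

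**Figure D2:**
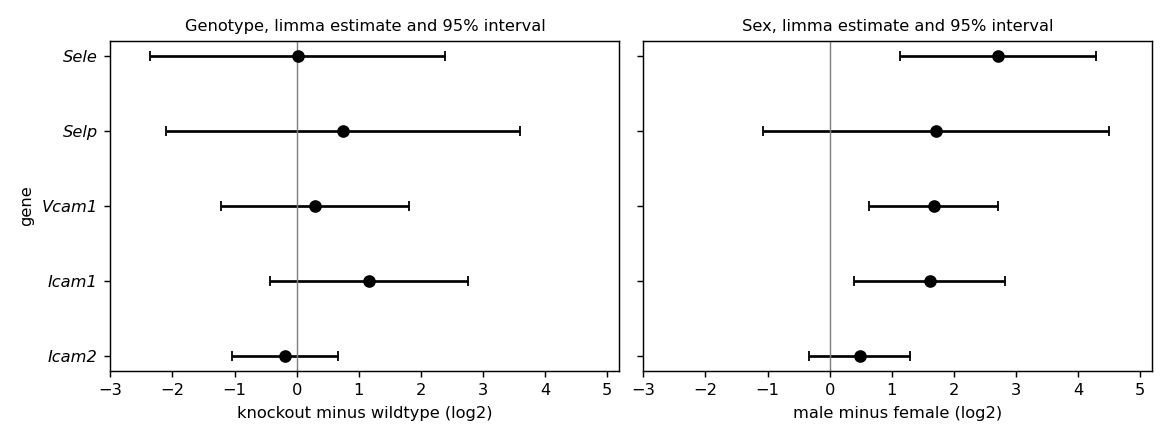
Differences in log2 expression (horizontal axes) of the 5 adhesion molecules, estimated with limma, between knockout and wildtype at the left and between males and females at the right. Points are estimates and bars 95% intervals (6 arrays). All 5 genotype intervals include 0, and the sex intervals of Sele, Vcam1 and Icam1 lie above 0, although none of the 3 passed after adjustment over all genes.

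No member lay near the ceiling of the arrays. The highest value of an array was 19.70 to 19.93, and the smallest distance of a member to it was 3.89 for Sele, 3.97 for Selp, 6.01 for Icam1, 8.46 for Icam2 and 9.89 for Vcam1. Among all genes tested, 47 came within 0.5 of the maximum of an array. The junction molecule Cdh5, which leukocytes pass on their way through the wall, was such a gene. It was 19.69, 19.70 and 19.62 in knockout 28, 27 and 52, against 19.71, 19.62 and 19.66 in wildtype 34, 45 and 37. So close to the ceiling, a higher level in either genotype might not have been seen, which was not tested.

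Sele, Selp, Vcam1 and Icam1 varied more between the animals than most genes did. The range over the 6 arrays was 4.01 for Sele, 3.11 for Icam1 and 2.52 for Vcam1, larger than in 99.3%, 98.1% and 95.4% of the genes tested, whose median range was 1.24. All 5 members had their lowest value in wildtype 34, where 20.7% of the genes tested had theirs. The highest values were in knockout 52 for Vcam1 and Icam1, in wildtype 37 for Sele and Icam2, and in wildtype 45 for Selp. Vcam1 ran exactly opposite to the spike-in mean over the 6 arrays, being highest in knockout 52, where the spike-in mean was lowest, and lowest in wildtype 34, where it was highest. Sele followed that order except for knockout 27 and wildtype 45 and for the males, which lay within 0.05 of each other. The spike-in arrays form 2 separate sets, so no correlation is given.

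**Figure D3:**
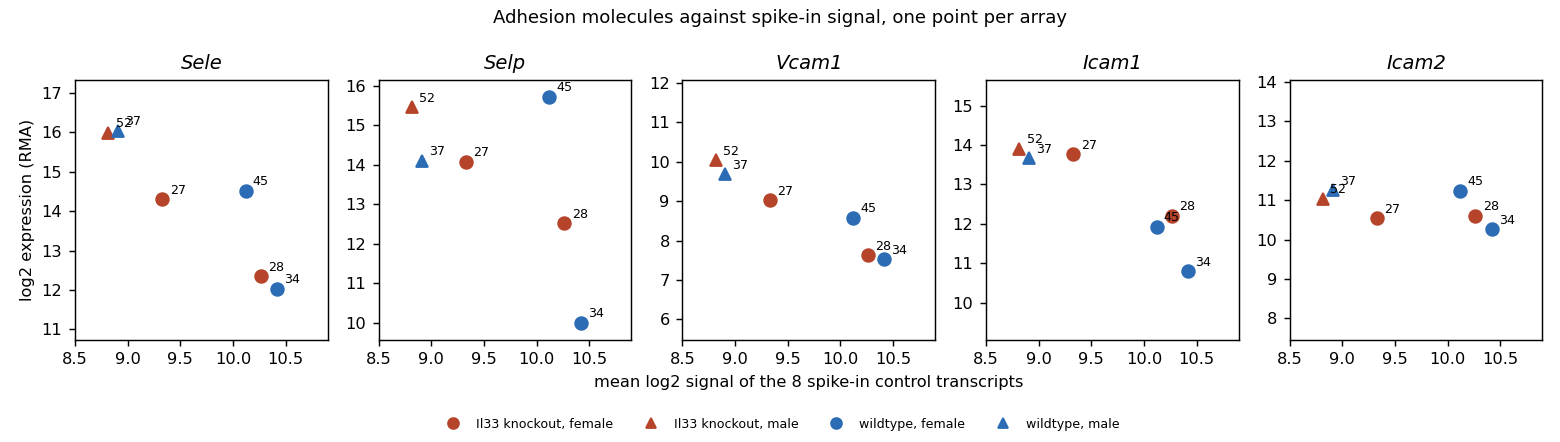
Log2 expression of each adhesion molecule (vertical axes, the same span in each panel) against the mean log2 signal of the 8 spike-in control transcripts (horizontal axes), 1 point per array, knockout and wildtype in different colours, circles for females and triangles for males. Vcam1 falls from left to right without exception, Selp has wildtype 45 (15.73) far above wildtype 34 (9.99) at like spike-in signal, and Icam2 is nearly flat.

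Within each of the 2 sets of arrays Sele, Vcam1 and Icam2 averaged lower in the knockout and Icam1 averaged higher, while Selp changed sign. Among the arrays of high spike-in signal, knockout 28 against wildtype 34 and 45, the difference was -0.93 for Sele, -0.42 for Vcam1, 0.83 for Icam1, -0.34 for Selp and -0.14 for Icam2. Among those of low signal, knockout 27 and 52 against wildtype 37, it was -0.89 for Sele, -0.15 for Vcam1, 0.17 for Icam1, 0.67 for Selp and -0.46 for Icam2. In each set a genotype was represented by a single array, and in the low set the sexes were uneven, as only the knockout held a female. For Sele, knockout 28 (12.35) lay between wildtype 34 (12.03) and 45 (14.52), and the males 52 and 37 were alike (15.99 and 16.04). The averages thus kept their sign in every member but Selp, yet with so few arrays they settle no direction for genotype.

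The males gave higher signal than the females for the inducible members, before adjustment. Sele was 15.99 and 16.04 in the males 52 and 37, against 12.35, 14.31, 12.03 and 14.52 in the females 28, 27, 34 and 45. Vcam1 was 10.04 and 9.69 in the males, against 7.63, 9.03, 7.52 and 8.58 in the females. For both genes the males lay above all females, as 23.5% of all genes tested did, and Icam1, Selp and Icam2 overlapped. In limma with genotype in the model the difference between males and females was 2.71 for Sele (SE 0.70, unadjusted p = 0.00361, adjusted p = 0.135). It was 1.68 for Vcam1 (SE 0.46, unadjusted p = 0.00526, adjusted p = 0.145) and 1.61 for Icam1 (SE 0.54, unadjusted p = 0.0146, adjusted p = 0.176).

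None of these sex differences passed. Between sexes 3 genes were called (0.0261% of those tested), while 18.7% of the genes tested had an unadjusted p under 0.05, 14.8% being higher in the males. The 3 of 5 members below that p, all higher in the males, thus stand beside a high background. Selp differed by 1.71 and Icam2 by 0.48 between males and females, with adjusted p of 0.485 and 0.497 in limma. With array weights the sex differences of Sele and Vcam1 passed (limma adjusted p = 0.0264 and 0.0347), a setting under which 717 genes were called. Both males were also arrays of low spike-in signal and low keratinocyte median (8.72 and 8.4), as was the female knockout 27 (8.80). With the split by spike-in signal as a block the sex difference was 1.43 for Sele, 0.79 for Vcam1 and 0.31 for Icam1 (limma adjusted p = 0.830, 0.858 and 0.958). With the keratinocyte median as a covariate it was 1.04 for Sele, 0.81 for Vcam1 and 0.25 for Icam1 (limma adjusted p = 0.645, 0.665 and 0.876). The part of these measures in the sex differences was not tested beyond these fits. Lymphatic markers were lower in the males for 6 of 6 genes, and the lymphatic chemokine Ccl21, at 13.13 and 9.91 in the males, was called (-4.48, limma adjusted p = 0.032).

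Of the 10 pairs of members none was related beyond adjustment, with an exact permutation test over the 6 arrays. The closest pair was Sele and Vcam1, with Pearson's r = 0.976 (exact permutation p = 0.0111, adjusted p = 0.0938) and Spearman's rho = 0.886 (exact permutation p = 0.0333, adjusted p = 0.111). Without wildtype 34 and knockout 28, the arrays farthest from the median of Sele, r was 0.90. Vcam1 and Icam1 had r = 0.881 and rho = 0.886 (exact permutation p = 0.0319 and 0.0333, adjusted p = 0.0938 and 0.111), and r was 0.767 without wildtype 34 and knockout 52. Sele and Selp had r = 0.809 and rho = 0.771 (exact permutation p = 0.0375 and 0.103, adjusted p = 0.0938 and 0.206), but r was -0.018 without wildtype 34 and knockout 28, so the relation rested on those arrays. Icam1 and Icam2 were the least alike, with r = 0.472 and rho = 0.257 (exact permutation p = 0.322 and 0.658, adjusted p = 0.322 and 0.658). These arrays also share the order of the spike-in signal, and neither sex nor either set holds the 6 arrays that a separate correlation needs.

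The genes most like each member over the 6 arrays were found among 11495 named genes by Pearson's r, as a description. For Sele they were Dram2 (r = 0.996), Tpp2 (0.994) and Ggt5 (0.993). For Selp they were Gch1 (0.995), which makes the cofactor of nitric oxide synthase, Tbc1d14 (0.993) and Cert1 (0.979). For Vcam1 they were Tmem50a (0.998), Atl2 (0.997) and Rab27a (0.993), a small GTPase of Weibel-Palade bodies. For Icam1 they were Xylb (0.998), Arl6ip1 (0.997) and Hspa5 (0.995), the main chaperone of the endoplasmic reticulum, and for Icam2 Rfx5 (0.988), Pmm1 (0.986) and Qpctl (0.978). With 6 arrays such values are common, as 4.58% of the genes had r over 0.9 with Sele, 5.53% with Vcam1, 4.32% with Icam1, 1.30% with Selp and 1.04% with Icam2. Xylb (3.66 to 4.79) and Qpctl (4.18 to 4.96) lay near the median of the background probesets (4.55 to 4.73).

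The leukocyte ligands of these molecules were mostly at background in these cells, which had been depleted of CD45+ leukocytes. Of 9 counter-receptors that the annotation names, 6 lay under the median of the background probesets in every array, namely Itga4, Itgal, Itgam, Itgb2, Itgb7 and Spn. Itgb2, the shared chain of the Icam1 and Icam2 receptors, was 3.53, 3.60 and 4.22 in knockout 28, 27 and 52, against 3.41, 4.03 and 3.22 in wildtype 34, 45 and 37. Itga4, the chain that binds Vcam1, was 3.83, 4.0 and 3.61 in the knockout, against 4.21, 3.60 and 3.38 in the wildtype. The others are not limited to leukocytes. The integrin chain Itgb1 was 14.89 ± 0.31 in the knockout, against 14.48 ± 0.13 in the wildtype, the E-selectin ligand Glg1 10.09 ± 0.43 and 10.12 ± 0.50, and the hyaluronan receptor Cd44 9.26 ± 0.87 and 9.85 ± 1.2, in the same order (SD, n = 3 each). Selplg and Itgax were not analysed here. Of the 7 counter-receptors tested 0 were called, 4 were higher and 3 lower in the knockout on average, and their median difference was 0.083.

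Leukocyte markers themselves ranged from background to clear signal. Of 9 markers 3 lay under the median of the background probesets in every array, while the macrophage marker Cd68 averaged 9.95 in the knockout and 9.50 in the wildtype. Cd68 was the only marker that averaged higher in the knockout. Of the 8 tested, 7 averaged lower, with a median difference of -0.46 and 0 called. Ptprc, which encodes CD45, was the median gene of the markers in each array, at 5.28, 5.80 and 4.59 in knockout 28, 27 and 52, against 7.72, 5.54 and 3.99 in wildtype 34, 45 and 37. Wildtype 34 thus had the highest leukocyte signal and the lowest signal of all 5 adhesion molecules.

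Other adhesion and transmigration molecules of endothelium held no called gene. Of 17 tested (of 18 the annotation names) 11 were higher and 6 lower in the knockout on average, with a median difference of 0.047 beside 0.037 over all genes. The sialomucins Emcn and Podxl, which cover the resting vessel wall, were 16.94 ± 0.38 and 15.91 ± 0.55 in the knockout, against 16.96 ± 0.08 and 15.78 ± 0.37 in the wildtype (SD, n = 3 each). A few more are named after their values were seen. Pecam1, the CD31 antigen of the sort, was 15.17 ± 0.12 in the knockout, against 15.29 ± 0.46 in the wildtype. Icam4 and Icam5, relatives that lie beside Icam1, were near background, at 4.16 to 4.58 and 4.02 to 4.89 in the knockout and 4.47 to 4.90 and 3.90 to 5.08 in the wildtype. The junction molecule Jam3 had the smallest p of the list (limma adjusted p = 0.999, unadjusted 0.0366). It was 9.51 ± 0.27 in the knockout and 8.55 ± 0.66 in the wildtype.

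Weibel-Palade bodies store Selp together with Vwf, which forms the granule. Vwf was 8.53, 8.76 and 10.54 in knockout 28, 27 and 52, against 8.58, 9.08 and 9.70 in wildtype 34, 45 and 37, highest in the male of each genotype and without the high value of Selp in wildtype 45. The granule membrane protein Cd63 was 13.15 ± 0.49 in the knockout, against 12.71 ± 0.84 in the wildtype. Angpt2, a stored ligand of the Tie receptor, was 11.76 ± 0.88 and 10.67 ± 1.80 in the same order (SD, n = 3 each). Plat, the tissue plasminogen activator, which can be stored in these granules, was 14.50, 14.55 and 12.52 in the knockout, against 11.97, 11.83 and 11.81 in the wildtype. All knockout arrays lay above all wildtype arrays in Plat, and below them in Rab3d, a GTPase of secretory granules (8.85, 8.07 and 8.91 in the knockout, against 9.02, 8.98 and 8.92 in the wildtype). Neither was called (limma adjusted p = 0.999 for each, unadjusted p = 0.00388 for Plat and 0.317 for Rab3d). Rab3d is named after its values were seen. Of 10 granule genes tested 7 were higher and 3 lower in the knockout on average, with 0 called and a median difference of 0.24.

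Genes of NF-kB and of the receptors that feed it, the known inducers of Sele, Vcam1 and Icam1, were not called either. Of 19 tested 13 were higher and 6 lower in the knockout on average, with a median difference of 0.12. Nfkbia, the inhibitor that NF-kB itself induces, was 18.79 ± 0.11 in the knockout, against 18.28 ± 0.65 in the wildtype (SD, n = 3 each). Rela, the activating subunit, was 14.58, 13.90 and 13.76 in knockout 28, 27 and 52, above all wildtype arrays at 13.15, 13.34 and 13.52. The difference was 0.74 (SE 0.35, limma adjusted p = 0.999). Rela was highest in knockout 28, where Sele, Vcam1 and Icam1 were the lowest of their genotype. That array also had the highest keratinocyte median of the knockout (11.61), and a relation of Rela with the members was not tested. Myd88, the adaptor of interleukin-1 and interleukin-33 receptors, was 15.48 ± 0.41 in the knockout, against 14.65 ± 1.28 in the wildtype. Il1rl1, the interleukin-33 receptor chain, picked here for its role after its values were seen, was 3.41 to 4.86 in the knockout and 3.21 to 4.21 in the wildtype, near or under the background probesets.

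Of the docking structure that anchors Icam1 and Vcam1 to the cytoskeleton, the 3 genes of highest mean gave strong signal in both genotypes. Moesin (Msn), which links their tails to actin, was 16.85 ± 0.45 in the knockout, against 16.40 ± 0.94 in the wildtype. The tetraspanin Cd151, which gathers them on the surface, was 14.93 ± 0.91 in the knockout, against 14.67 ± 1.15 in the wildtype, and the actin cross-linker Actn4 was 17.91 ± 0.22 and 17.70 ± 0.54 in the same order (SD, n = 3 each). The kinase Src, named after its values were seen, lay near the highest background probesets (5.36 to 5.87), at 6.16, 5.44 and 5.05 in knockout 28, 27 and 52, against 6.06, 4.99 and 5.48 in wildtype 34, 45 and 37. Of 13 genes tested in this list, which includes the shedding proteases Adam10 and Adam17, 8 were higher and 5 lower in the knockout on average. None was called, and the median difference was 0.13.

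**Figure D4:**
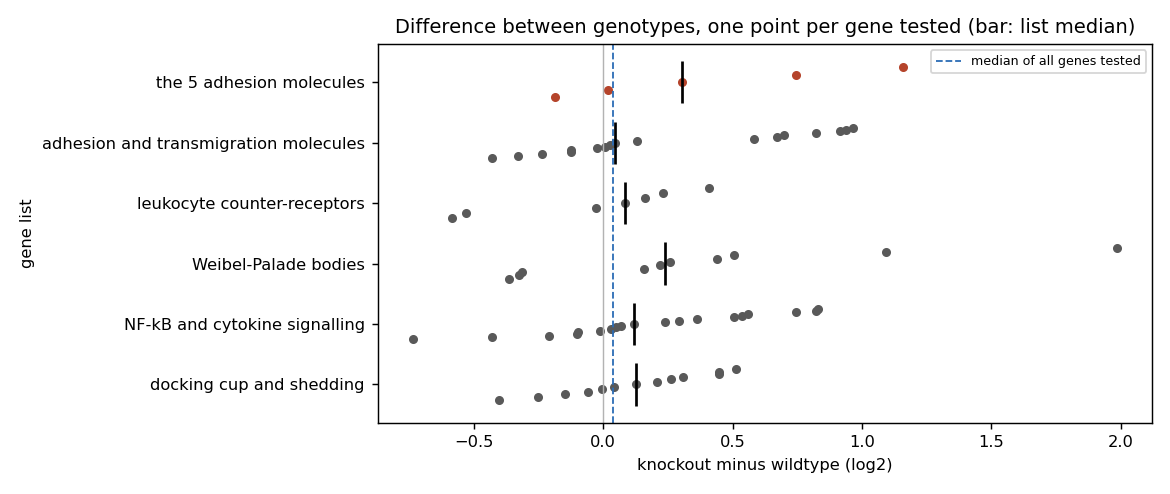
Differences in log2 expression between knockout and wildtype (horizontal axis), 1 point per gene tested, for the 5 adhesion molecules and 5 lists of genes that work with them; bars are list medians and the dashed line the median of all genes tested (0.037). Points of every list lie on both sides of 0, and Plat (1.99) is the farthest from it.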

How the data were processed

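RNA of sorted dermal endothelium from 6 rats was hybridised to Affymetrix arrays. The authors made the deposited log2 values with RMA and Affymetrix Expression Console (source: the submitters' processing notes), and no versions or build are stated. That they are log2 rests on that entry and on their range (1.6 to 19.93). They were used without further scaling. RMA makes array distributions alike, which can shift a gene when the composition of a sample differs.

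Of 24834 probesets, 1646 were controls, 15049 had 1 gene symbol, 0 several and 8139 were unnamed here; all 15049 Entrez identifiers matched RefSeq (GRCr8), with 0 symbols changed. Of 15037 genes (for 10 with several probesets the one of highest mean was kept), 3522 were left out as dim, their mean being below 3.52 (25th percentile over probesets). Knockout and wildtype were compared with limma 3.58.1 (R 4.3.3; lmFit, eBayes), two-sided, with p adjusted by Benjamini-Hochberg over all 11515 genes and called under 0.05. A second model held sex and genotype, and another their interaction. Exact tests of 3 against 3 reach no p below 0.1 and were not used for single genes; p-values rest on the spread between animals, and 6 arrays limit the precision (median SE 0.387). The fit was tested on simulated data.

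Members and lists were chosen with earlier results of these data known. Beside Il33 and the members, the 3 genes of highest mean and any called gene of each list, the counter-receptors, Vwf and the 3 genes most like each member are named, predicted genes passed over. Marker lists covered blood, venous and lymphatic endothelium, keratinocytes, fibroblasts, pericytes, leukocytes, platelets, erythroid cells and dissociation. Alternatives were filters, normalizations, covariates, weights and leaving out each animal.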

Additional observations from a re-analysis of the deposited data

How the results depend on the processing

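No member was called between genotypes under any of the 18 alternatives, which were filters, normalizations, designs, weights, covariates, a spike-in block and leaving out each animal. The number of genes called by limma, 1 as reported, was 2 with the blood endothelial mean as a covariate and 0 with females only, with a filter at the 50th percentile or with none (620, 140 and 335 genes had an unadjusted p under 0.05). It was 0 to 1 when 1 animal was left out, and 0 without knockout 27, 28 or 52 or wildtype 37 or 45 (111 to 967 genes at an unadjusted p under 0.05). With the blood endothelial mean as a covariate the genotype difference turned to -3.08 for Sele, -1.48 for Selp, -1.50 for Vcam1 and -0.80 for Icam1. That mean did not overlap between the genotypes (14.04 to 14.30 in the knockout, 13.61 to 14.03 in the wildtype). Knockout 27 (14.042) and wildtype 37 (14.029) nearly met, so these estimates lie at a level that the groups approach but do not share. With the keratinocyte median the genotype difference turned to -1.38 for Sele, -0.60 for Selp and -0.51 for Vcam1. The spike-in block turned it to -0.91 for Sele and -0.29 for Vcam1, and quantile normalization again to -0.12 for Sele. The unadjusted limma p of Sele was 0.0269 with the endothelial mean and 0.0253 with the keratinocyte median (adjusted p = 0.855 and 0.999). The causes of these turns were not tested. Leaving out 1 animal gave -1.06 to 0.95 for Sele (below 0 without wildtype 34 or knockout 27 or 52), -0.90 to 1.97 for Selp (below 0 without wildtype 34), -0.27 to 0.94 for Vcam1 (below 0 without wildtype 34 or knockout 52), 0.49 to 1.93 for Icam1 and -0.52 to -0.02 for Icam2. Alternatives for the sex comparison were added after seeing the data. Of 3 genes called as reported, the number was 717 with array weights, 29 with arrays centred on their medians, 26 with trend and robust eBayes, 27 with sex alone in the design, 0 with the blood endothelial mean as a covariate (402 at an unadjusted limma p under 0.05) and 2 to 66 without 1 animal, 66 being without knockout 27. The sex difference turned to -0.82 for Selp with the keratinocyte median and to -0.25 for Icam2 with the blood endothelial mean. The interaction of genotype and sex gave 0 genes in limma as reported and in all 3 alternatives. No paired analysis was possible because the 2 groups share no animal numbers.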

Other observations

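Venous markers, which mark the vessels where leukocytes usually leave the blood, were measured for 3 of 5 genes and like Sele included genes with their highest values in the males. Bmp4, a growth factor of the TGF-beta family, was 11.09, 12.52 and 15.43 in knockout 28, 27 and 52, against 10.98, 12.45 and 14.80 in wildtype 34, 45 and 37. The venous transcription factor Nr2f2 was 14.13, 14.6 and 15.36 in the knockout, against 13.69, 14.20 and 15.62 in the wildtype. The semaphorin receptor Nrp2 was 10.97 ± 0.45 in the knockout, against 10.64 ± 0.34 in the wildtype (SD, n = 3 each). None was called between genotypes or between sexes in limma (sex adjusted p = 0.065 for Bmp4, 0.135 for Nr2f2 and 0.522 for Nrp2). Both of the first 2 genes were higher in the males than in all females, as were 23.5% of the genes tested.

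Genes that tissue dissociation induces were high in every array, and 3 of 9, the chaperone Hspa8, the phosphatase Dusp1 and the transcription factor Egr1, lay within 0.5 of the ceiling in all 6 arrays. The list median was 17.53 to 17.68 in the knockout and 17.17 to 17.86 in the wildtype, and 0 of 9 genes were called. All 9 averaged higher in the knockout, by 0.027 to 0.79, with a median of 0.070 beside 0.037 over all genes tested.

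Blood endothelial markers were higher in the knockout on average for 11 of 13 genes, with 0 called. Plvap, a protein of fenestrae, was 19.79 ± 0.09 in the knockout and 19.77 ± 0.12 in the wildtype, at the ceiling, and Eng, a co-receptor for TGF-beta, was 18.89 ± 0.13 in the knockout and 18.59 ± 0.23 in the wildtype (SD, n = 3 each).

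Marker lists of other cells held 0 genes called between genotypes. Pericyte and smooth muscle markers had medians of 9.46 to 11.50 in the knockout and of 9.59 to 11.97 in the wildtype (Rgs5 18.59 and 17.77, Pdgfrb 13.27 and 12.15, Des 12.67 and 12.40 on average in the same order). Fibroblast markers had medians of 9.06 to 10.37 and of 9.68 to 12.69, and lymphatic markers of 7.12 to 8.56 and of 5.24 to 8.29, knockout before wildtype. The epidermal genes Krt1, Krt15 and Perp averaged 12.17, 11.24 and 10.09 in the knockout, against 13.52, 13.99 and 12.11 in the wildtype. The matrix genes Col3a1, Dcn and Fbn1 averaged 11.37, 11.43 and 11.26 in the knockout, against 12.08, 11.89 and 11.95 in the wildtype. The lymphatic genes Ccl21, Pdpn and Reln averaged 15.44, 9.27 and 8.15 in the knockout, against 13.58, 8.62 and 7.61 in the wildtype. The leukocyte genes Lcp1, Cd68 and Lyz2 averaged 9.70, 9.95 and 7.84 in the knockout, against 9.80, 9.50 and 8.26 in the wildtype. The globin genes Hba-a1, Hbb and Hba-a3 averaged 16.25, 12.28 and 10.28 in the knockout, against 14.16, 10.60 and 8.22 in the wildtype.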
